A study of Rattus norvegicus with 15 samples.

Results

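Aortic gene expression was compared between uremic rats given VS-105 and uremic rats given paricalcitol, with 3 arrays in each group, which are 6 of the 15 arrays of the study. The arrays were taken by their sample labels, and the comparison is the difference of the group means on the log2 scale (VS-105 minus paricalcitol) over all 15739 features of the deposited table. Both groups were Sprague Dawley rats with 5/6 nephrectomy (NX), a surgical model in which most kidney tissue is removed. NX-VS-105 rats received 0.01 µg/kg and NX-paricalcitol rats 0.08 µg/kg, in both cases by intraperitoneal injection 3 times a week for 12 days. The doses therefore differed together with the compound, and the effects of compound and dose cannot be told apart. The 3 remaining groups, also of 3 arrays each, were NX-alfacalcidol (0.04 µg/kg on the same schedule), NX-vehicle, and untreated sham rats of matched age, and their levels are given where they place a gene. Each array carried RNA pooled from 2 rats of a group of 8 to 12 animals. The p-values rest on variation among such pools, and the time of day at which tissue was taken is not given in the sources used here.

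Both compounds are agonists of the vitamin D receptor, a nuclear receptor that pairs with a retinoid X receptor and binds DNA at paired hexamer elements. Paricalcitol is a synthetic analog of the vitamin D2 type used against secondary hyperparathyroidism in kidney disease, and VS-105 is a compound known here by its code name. In the vessel wall the receptor is present in smooth muscle and endothelial cells, and its agonists are studied for effects on calcification, inflammation, matrix and vascular tone. The series title names endothelial function and aortic expression as what was to be compared between such agonists.

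The samples carried the markers of aortic wall. Smooth muscle actin (Acta2) had a log2 signal of 8.86 ± 0.36 in NX-VS-105 and 9.08 ± 0.16 in NX-paricalcitol, and smooth muscle myosin (Myh11) had 9.00 ± 0.34 in NX-VS-105 and 9.18 ± 0.05 in NX-paricalcitol (SD, n = 3 each). Signal from genes typical of adjoining tissue was present too, and unequally. The mean log2 signal over 14 white adipocyte genes was 5.48, 4.98 and 5.99 on NX-VS-105 arrays 1 to 3, against 5.52, 3.57 and 3.49 on NX-paricalcitol arrays 1 to 3. Paricalcitol array 1 thus had as much adipocyte signal as the VS-105 arrays, while paricalcitol arrays 2 and 3 had less. The mean over 18 skeletal muscle genes was 3.72, 0.65 and 0.09 on the VS-105 arrays, against 0.22, 0.28 and 0.16 on the paricalcitol arrays, so VS-105 array 1 stood apart. In bulk tissue, fewer cells of a type and less RNA per cell cannot be told apart. Array medians of all 15 arrays lay between 2.33 and 2.64, and counts for many gene groups are also given with single arrays left out.

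Few genes separated the compounds at the level of the whole table. With limma fitted to all 15 arrays and p-values adjusted by the Benjamini-Hochberg method over 15739 features, 3 features (0.0191%) passed an adjusted p of 0.05, and all 3 fell in NX-VS-105. They were Arsi, Entpd7 and Bcl3. No feature rose by that test, and the smallest adjusted p among features with a higher mean was 0.112. With each array's median subtracted before the limma fit, 5 features passed, 4 lower and 1 higher. The higher one was Cyp4f5 (adjusted p = 0.0405), and Bcl3 no longer passed (adjusted p = 0.0551). At an unadjusted limma p under 0.05 there were 2126 features (13.5%), of which 639 (4.06%) were higher and 1487 (9.45%) lower in NX-VS-105. Subtracting each array's median turned this split into 910 higher and 1356 lower. The median difference over all features was -0.10 (log2) as deposited and -0.04 after that centring, and 63.7% of features had a difference below 0 and 36.3% above 0 (55.8% and 44.2% after centring). These counts moved with single arrays: the higher count was 1104 without paricalcitol array 1, 321 without paricalcitol array 2, 342 without paricalcitol array 3 and 390 without VS-105 array 3, and the lower count was 763 without paricalcitol array 2 and 777 without VS-105 array 3. The 3 arrays of one group lay wholly on one side of the other 3 for 3069 features (19.5%), with 898 (5.71%) higher and 2171 (13.8%) lower in NX-VS-105.

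Arsi, which encodes a member of the arylsulfatase family, had the largest separation of the genes that passed. Its log2 signal was 0.68, 0.97 and 1.06 on the NX-VS-105 arrays, against 2.76, 3.55 and 3.48 on the NX-paricalcitol arrays. The groups did not overlap, and the difference was -2.36 ± 0.33 (SE), or 5.13-fold lower in NX-VS-105 (adjusted p = 0.0498). The mean of 0.90 in NX-VS-105 equalled that in NX-alfacalcidol (0.90), whereas NX-paricalcitol (3.26) lay above NX-vehicle (2.39) and sham (1.57).

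Bcl3 encodes a nuclear member of the IκB family that acts as a cofactor of NF-κB. Its signal was 2.59, 2.59 and 2.62 in NX-VS-105, against 3.49, 3.75 and 3.34 in NX-paricalcitol. The VS-105 arrays were nearly equal, and each lay below every paricalcitol array, with a difference of -0.93 ± 0.13 (adjusted p = 0.0498). Group means were 2.60 in NX-VS-105 and 3.53 in NX-paricalcitol, beside 2.58 in NX-alfacalcidol, 3.34 in NX-vehicle and 3.12 in sham.

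Entpd7 encodes an enzyme that hydrolyses nucleoside triphosphates. It had -1.06, -0.72 and -1.13 in NX-VS-105, against -0.15, 0.09 and -0.07 in NX-paricalcitol, without overlap (difference -0.92 ± 0.13, adjusted p = 0.0498). These levels were low on the scale, under the lowest array median of 2.33. Here NX-VS-105 had the lowest mean of the 5 groups, since NX-alfacalcidol (0.08), NX-vehicle (0.16) and sham (-0.45) all had higher means than its -0.97. All 3 calls lie close to the threshold. They were lost when the 6 arrays were fitted alone, where 0 features passed, and Entpd7 and Bcl3 were lost without any 1 of the 15 arrays, while Arsi passed only without NX-vehicle array 1 (adjusted p = 0.0144).

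The gene next in order below these was Cacfd1, named for a calcium channel flower domain, with -0.50, 0.13 and -0.19 in NX-VS-105 and 1.03, 1.21 and 1.02 in NX-paricalcitol (difference -1.27 ± 0.19, adjusted p = 0.0654). Its levels were low on the scale too. On the higher side, 4 genes had the smallest p, and none of them passed in the values as deposited. Timp4, an inhibitor of matrix metalloproteinases, had 4.57, 3.76 and 3.79 in NX-VS-105, against 3.04, 2.51 and 2.35 in NX-paricalcitol (difference 1.41 ± 0.26, adjusted p = 0.126). Its VS-105 mean of 4.04 was near that of NX-alfacalcidol (3.77), and its paricalcitol mean of 2.63 near those of NX-vehicle (2.84) and sham (2.64). Gstk1, a glutathione S-transferase of mitochondria and peroxisomes, had 4.10, 4.07 and 4.03 in NX-VS-105, against 3.53, 3.05 and 3.03 in NX-paricalcitol (difference 0.87 ± 0.16, adjusted p = 0.122). Cyp4f5, a cytochrome P450 of the fatty acid hydroxylase family, had 3.84, 3.84 and 3.43 in NX-VS-105 and 2.85, 2.80 and 2.71 in NX-paricalcitol (difference 0.91 ± 0.17, adjusted p = 0.126). For Cyp4f5 the paricalcitol mean was the lowest of the 5, since NX-alfacalcidol (3.51), NX-vehicle (3.39) and sham (3.44) were all near the VS-105 mean of 3.70. Armc12, an armadillo repeat gene known from mouse sperm, was near the bottom of the scale at -0.30, -0.56 and -0.07 in NX-VS-105, against -1.53, -1.95 and -1.51 in NX-paricalcitol (difference 1.36 ± 0.25, adjusted p = 0.122).

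**Figure D1:**
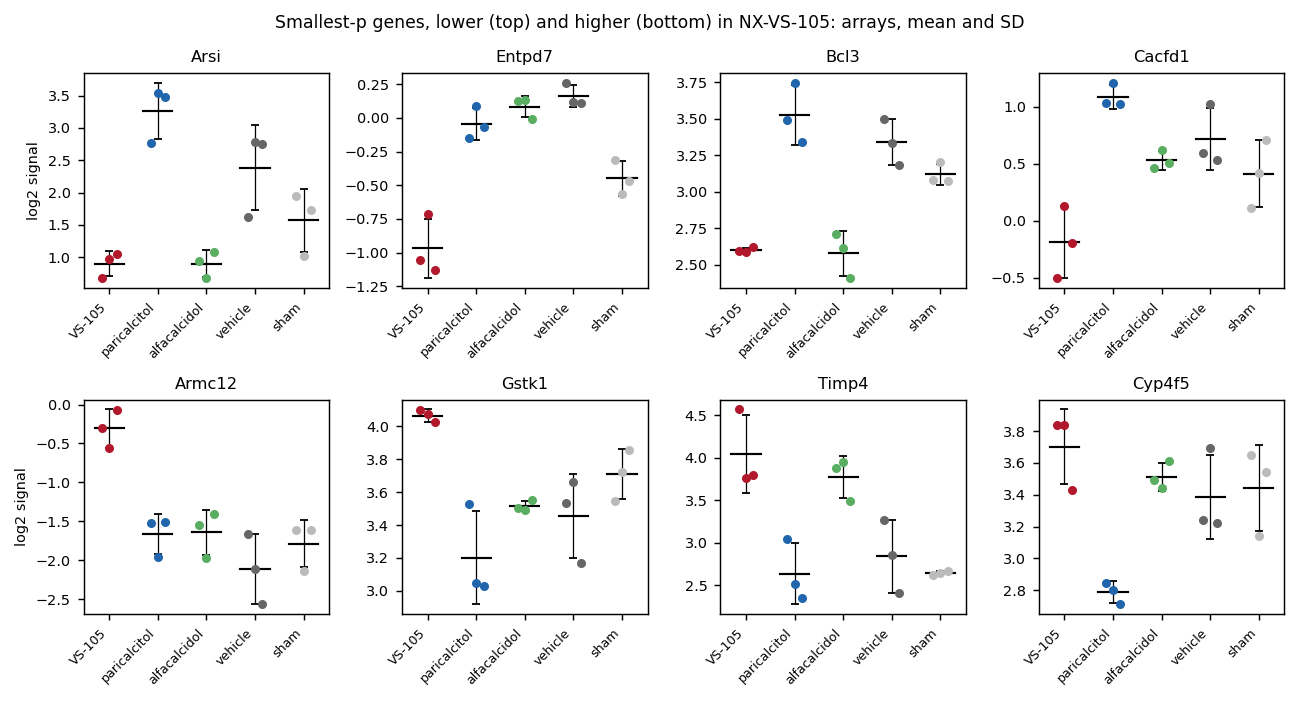
Log2 signal of the 4 genes with the smallest p among those lower (top row) and higher (bottom row) in NX-VS-105, for each array of the 5 groups; points are arrays, lines group means and bars SD (n = 3). In every panel the 3 VS-105 arrays lie on one side of the 3 paricalcitol arrays, and only Arsi, Entpd7 and Bcl3 passed the test.

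Placed among the groups, the 2126 features at an unadjusted p under 0.05 divided unevenly. For 877 of them the NX-VS-105 mean alone lay outside the range of the means of NX-alfacalcidol, NX-vehicle and sham, for 310 the NX-paricalcitol mean alone did, for 861 both did, and for 78 neither did. Over all 15739 features the corresponding counts were 4280, 2508, 4795 and 4156. These counts describe positions of means and are not tests.

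Genes of the circadian clock were the group with the most members apart between the compounds. The clock is a feedback loop in which BMAL1 (also called ARNTL), paired with CLOCK or NPAS2, drives the Per, Cry and Nr1d genes and Ciart, whose products repress it. Nr1d and Ror receptors in turn control Bmal1, and the output factors DBP, TEF and NFIL3 act on further genes. Each arm of the loop has its own DNA element, and promoters of 4 members are shown because they carry the elements of the different arms. The windows run from 250 bases before to 50 bases after the transcription start, from RefSeq on build GRCr8, and capitals mark the element that was found. Bmal1 lies at chr1:176766078-176766377 on the + strand, Ciart at chr2:186112197-186112496 on the - strand, Per2 at chr9:99496944-99497243 on the - strand, and Tef at chr7:115206577-115206876 on the + strand.
Bmal1: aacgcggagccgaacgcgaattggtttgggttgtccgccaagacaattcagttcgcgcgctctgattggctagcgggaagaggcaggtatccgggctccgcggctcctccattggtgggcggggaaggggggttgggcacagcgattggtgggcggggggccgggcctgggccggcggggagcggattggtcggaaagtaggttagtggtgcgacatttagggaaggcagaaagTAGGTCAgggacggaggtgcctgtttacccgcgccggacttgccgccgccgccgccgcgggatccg
Ciart: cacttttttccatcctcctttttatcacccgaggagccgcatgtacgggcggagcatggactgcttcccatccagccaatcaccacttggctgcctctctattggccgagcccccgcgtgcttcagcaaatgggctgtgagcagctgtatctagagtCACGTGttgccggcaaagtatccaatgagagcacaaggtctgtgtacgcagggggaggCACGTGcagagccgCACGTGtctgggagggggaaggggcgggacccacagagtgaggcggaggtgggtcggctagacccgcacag
Per2: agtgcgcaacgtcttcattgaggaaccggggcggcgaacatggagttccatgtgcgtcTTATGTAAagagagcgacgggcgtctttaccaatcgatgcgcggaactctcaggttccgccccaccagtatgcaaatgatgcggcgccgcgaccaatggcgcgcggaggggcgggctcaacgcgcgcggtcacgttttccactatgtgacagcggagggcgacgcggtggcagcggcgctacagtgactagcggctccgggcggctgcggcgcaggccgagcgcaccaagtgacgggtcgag
Tef: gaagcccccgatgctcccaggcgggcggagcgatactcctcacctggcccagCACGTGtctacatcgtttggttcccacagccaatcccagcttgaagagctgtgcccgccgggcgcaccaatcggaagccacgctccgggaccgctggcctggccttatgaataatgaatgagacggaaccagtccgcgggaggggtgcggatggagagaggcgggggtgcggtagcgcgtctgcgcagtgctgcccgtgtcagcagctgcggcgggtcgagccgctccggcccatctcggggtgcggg

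The searches covered both strands. The E-box CACGTG, the element of BMAL1 with its partners, occurred 3 times in the Ciart window, starting 93, 35 and 21 bases before the transcription start, and once in that of Tef. Among 20 clock members with a promoter in the table, 5 held it (Ciart, Tef, Nr1d1, Bhlhe40 and Bhlhe41), against 6.42% of all 33469 promoters and 9.6% of those of 8809 genes on the array. The Ror element, searched as TAGGTCA or TGGGTCA, was found in 1 of the 20, Bmal1, starting 16 bases before the transcription start, against 6.6% of all promoters. The D-box of DBP and TEF, searched as TTATGTAA or TTACGTAA, was found in 1 of the 20, Per2, against 1.01%. No printed element overlapped another. These matches describe letters in short windows.

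Among the 17 core clock genes, all measured, 0 passed the adjusted test and 9 had an unadjusted limma p under 0.05, against 13.5% of all features. With any 1 of the 6 arrays left out the number was 7 or 8. Activators and repressors lay on opposite sides. Bmal1 had 0.55, -0.05 and 0.09 in NX-VS-105, against 1.83, 1.83 and 2.25 in NX-paricalcitol. The groups were more than 1 log2 unit apart at their closest arrays, and the difference of -1.77 ± 0.31, or 3.42-fold lower in NX-VS-105, had an adjusted p of 0.112. The partners of BMAL1 lay on the same side. Clock had -0.41, -0.57 and -0.45 in NX-VS-105, against 0.12, 0.37 and 0.08 in NX-paricalcitol (difference -0.67 ± 0.18, adjusted p = 0.227). Npas2 had 2.10, 2.90 and 2.71 in NX-VS-105, against 3.11, 3.31 and 3.40 in NX-paricalcitol (difference -0.70 ± 0.23, adjusted p = 0.269). Neither gene's groups overlapped.

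The repressor genes were on the other side. Ciart, whose product represses BMAL1 with its partners, had 0.38, 1.15 and 0.71 in NX-VS-105, against -1.06, -0.997 and -1.19 in NX-paricalcitol (difference 1.83 ± 0.46, 3.55-fold, adjusted p = 0.21). Every VS-105 array lay above every paricalcitol array. Per2, a period gene, had 3.09, 3.17 and 2.77 in NX-VS-105, against 1.92, 2.49 and 2.21 in NX-paricalcitol (difference 0.80 ± 0.23, adjusted p = 0.235). Cry1, a cryptochrome, had 0.30, 0.47 and 0.84 in NX-VS-105, against -0.19, -0.51 and -0.10 in NX-paricalcitol (difference 0.80 ± 0.21, adjusted p = 0.227). Both also separated without overlap, as did Per3 (difference 0.46) and Nr1d1 (difference 0.55). Not all repressors took part in the separation. Per1 differed by -0.04 ± 0.16 (0.01 after centring), Cry2 by -0.07 ± 0.13 and Nr1d2 by 0.15 ± 0.22, with overlapping arrays.

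Of 10 measured clock output genes, 3 were higher and 1 lower at an unadjusted limma p under 0.05, against 4.06% and 9.45% of all features. None passed the adjusted test. The lower count was 0 after centring or without paricalcitol array 1 or VS-105 array 1 or 2, and 2 without NX-vehicle array 2. Tef, a transcription factor that binds the D-box, had 5.16, 5.47 and 5.36 in NX-VS-105, against 4.43, 4.42 and 3.95 in NX-paricalcitol (difference 1.06 ± 0.23, adjusted p = 0.18). Wee1, a kinase that delays mitosis, had 3.39, 3.65 and 3.31 in NX-VS-105, against 2.49, 2.82 and 2.52 in NX-paricalcitol (difference 0.84 ± 0.19, adjusted p = 0.183). Neither overlapped. Dbp had 6.59, 8.23 and 7.92 in NX-VS-105, against 6.61, 6.92 and 6.42 in NX-paricalcitol, and its first VS-105 array lay among the paricalcitol arrays (difference 0.93 ± 0.45, adjusted p = 0.385).

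The other groups place these levels. For Bmal1, the means were 0.20 in NX-VS-105 and 1.97 in NX-paricalcitol, beside -0.65 in NX-alfacalcidol, 1.95 in NX-vehicle and 2.37 in sham. For Ciart they were 0.74 in NX-VS-105 and -1.08 in NX-paricalcitol, beside 1.67 in NX-alfacalcidol, -2.11 in NX-vehicle and -3.30 in sham. In both genes the VS-105 mean lay between those of alfacalcidol and paricalcitol. The same order held for Per2, with 3.01 in NX-VS-105 and 2.21 in NX-paricalcitol beside 3.64 in NX-alfacalcidol, and for Tef, with 5.33 in NX-VS-105 and 4.27 in NX-paricalcitol beside 5.45 in NX-alfacalcidol. Since the hour of tissue collection is not given for any group, its part in these differences was not tested.

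**Figure D2:**
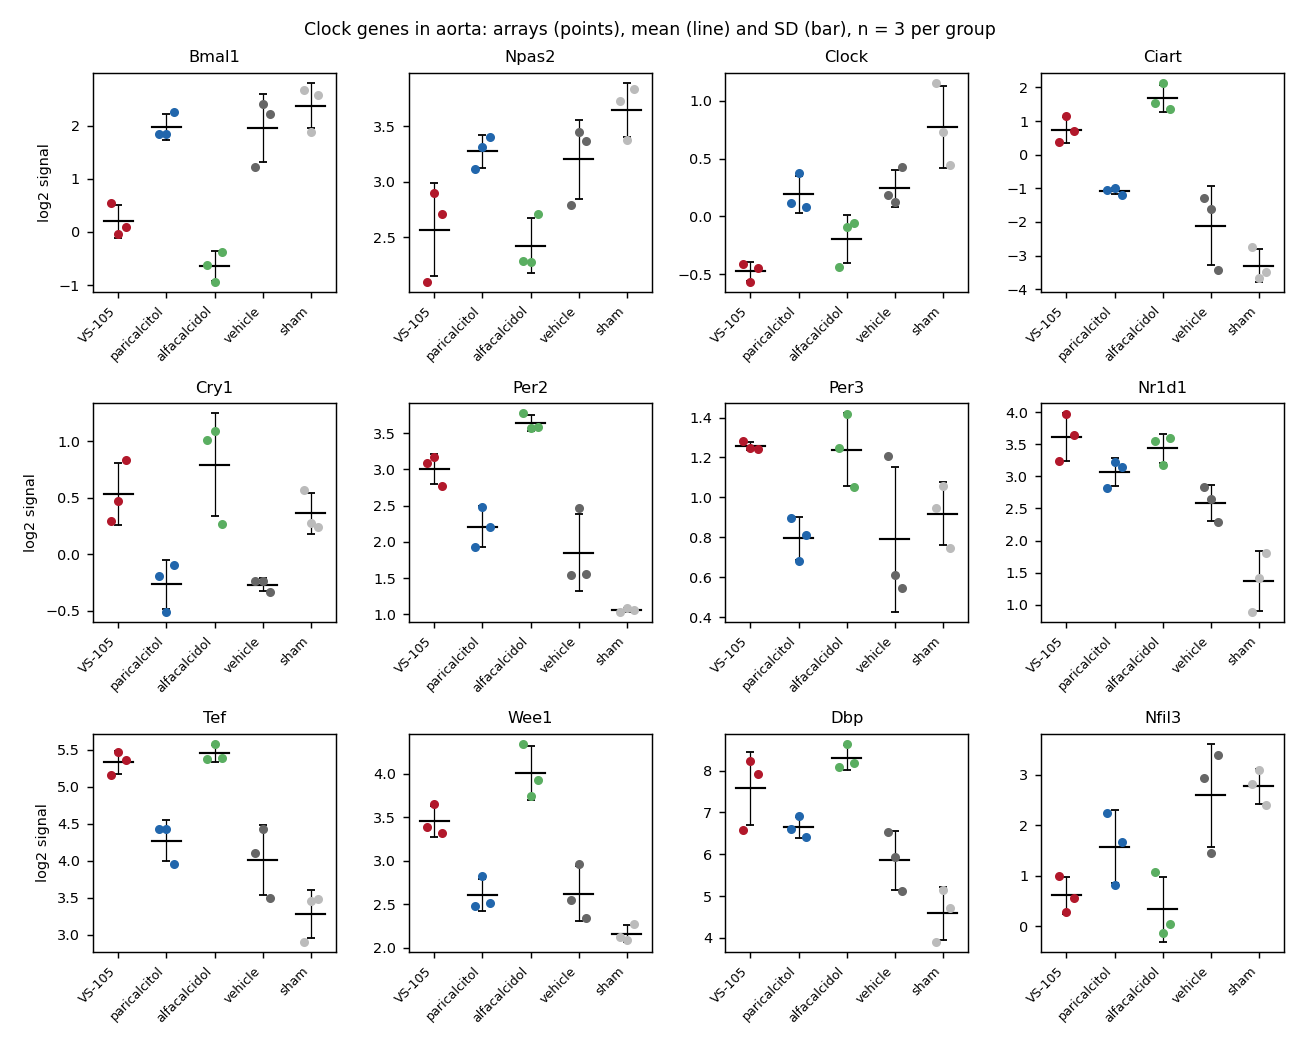
Log2 signal of 12 clock genes on each array of the 5 groups, with points for arrays, lines for means and bars for SD (n = 3). Bmal1, Npas2 and Clock are lower and Ciart, Cry1, Per2, Per3, Nr1d1, Tef and Wee1 higher on all 3 VS-105 arrays than on all 3 paricalcitol arrays, while Dbp and Nfil3 overlap; none of the 12 passed the adjusted test.

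The vitamin D system itself showed no gene that passed. Vdr, the receptor, had -0.81, -1.12 and -1.04 in NX-VS-105, against -0.74, -1.19 and 0.15 in NX-paricalcitol, where array 3 stood above the rest. The arrays overlapped, and the difference was -0.40 with a 95% confidence interval of -1.17 to 0.38. Both means, -0.99 in NX-VS-105 and -0.59 in NX-paricalcitol, lay below those of NX-vehicle (0.60) and sham (0.58). Of 12 measured genes for the receptor, its partners and vitamin D metabolism, 1 was higher and 1 lower at an unadjusted limma p under 0.05. Of all features 4.06% were higher and 9.45% lower at that p. Both counts were 0 without paricalcitol array 2 or 3 or VS-105 array 2 or 3, the higher count was 3 without paricalcitol array 1, and the lower count was 0 without it or after centring. The lower count was 2 without sham array 1 or 2, and the higher count 2 without NX-vehicle array 1 and 0 without NX-vehicle array 3. Rxra, the retinoid X receptor that pairs with VDR, had -0.95, -1.04 and -1.09 in NX-VS-105, against -0.45, -0.58 and -0.56 in NX-paricalcitol (difference -0.50 ± 0.21, adjusted p = 0.339). Cyp27a1, a sterol and vitamin D hydroxylase, had 0.76, 1.47 and 1.39 in NX-VS-105, against 0.91, 0.58 and 0.87 in NX-paricalcitol, with overlap (difference 0.42 ± 0.19, adjusted p = 0.352). Cyp27b1, the enzyme that makes the active hormone, differed by -0.04 ± 0.14 (0.02 after centring). Of 12 measured genes known as vitamin D targets in other tissues, 0 passed in limma and 0 had an unadjusted p under 0.05 (1 without NX-vehicle array 1, paricalcitol array 1 or VS-105 array 3). A difference below 0 was seen in 9 of the 12, against 63.7% of all features. For 2 of the 12 both group means were at or under -2.71, the highest array minimum. Among the 12 targets the cell cycle inhibitor Cdkn1a had 8.25, 8.09 and 7.82 in NX-VS-105, against 8.44, 8.54 and 8.29 in NX-paricalcitol (adjusted p = 0.441).

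Genes for vascular tone also gave no passing member. Of 24 measured endothelial and vasoactive genes, 12 had a difference above 0 and 12 below, against 36.3% and 63.7% of all features. In each direction 1 had an unadjusted limma p under 0.05, against 4.06% of all features higher and 9.45% lower. The higher count was 0 without paricalcitol array 2 or VS-105 array 3 and 2 after centring, and the lower count was 3 without VS-105 array 1 or 2. Nos3, the endothelial nitric oxide synthase, had 1.99, 1.32 and 1.87 in NX-VS-105, against 2.19, 1.67 and 1.22 in NX-paricalcitol. The arrays overlapped throughout, and the difference of 0.03 had an interval of -0.53 to 0.59, which changed sign when VS-105 array 1 or 3 or paricalcitol array 3 was left out. Edn1, the precursor of the constrictor peptide endothelin, had -0.30, -0.92 and -0.67 in NX-VS-105, against 0.18, -0.37 and -0.41 in NX-paricalcitol (difference -0.43, interval -0.94 to 0.09). The lower of the 2 was Prkg1, the kinase activated by cyclic GMP in smooth muscle, with 0.25, 0.13 and -0.39 in NX-VS-105, against 0.59, 0.83 and 0.84 in NX-paricalcitol (difference -0.75 ± 0.23, adjusted p = 0.24). The higher was Nos2, the inducible nitric oxide synthase, with 0.70, 0.10 and 0.76 in NX-VS-105, against 0.00, -0.29 and 0.12 in NX-paricalcitol (difference 0.58 ± 0.23, adjusted p = 0.323). Prkg1 separated the groups, and Nos2 did not.

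Potassium channel genes diverged among themselves, with 2 higher and 5 lower of 14 at an unadjusted p under 0.05, against 4.06% and 9.45% of all features, and 0 passing. The lower count was 0 without paricalcitol array 2, 2 without VS-105 array 3 and 3 without paricalcitol array 3 or VS-105 array 1 or 2, and the higher count was 1 without paricalcitol array 2 or 3. Kcna5, a voltage-gated channel, had 0.46, -0.47 and -0.37 in NX-VS-105, against -1.03, -2.19 and -1.47 in NX-paricalcitol (difference 1.44 ± 0.37, adjusted p = 0.224). Kcnma1, the large-conductance calcium-activated channel of smooth muscle, had 1.74, 1.36 and 1.40 in NX-VS-105, against 2.11, 2.41 and 2.00 in NX-paricalcitol (difference -0.67 ± 0.24, adjusted p = 0.288). Both separated the groups in opposite directions. The other higher channel was Kcnk3 (difference 1.60), which is also described below with the brown fat list. Corin, the protease that activates atrial natriuretic peptide, had 2.21, 1.49 and 2.21 in NX-VS-105, against 2.38, 3.91 and 3.65 in NX-paricalcitol (difference -1.34 ± 0.46, adjusted p = 0.272).

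**Figure D3:**
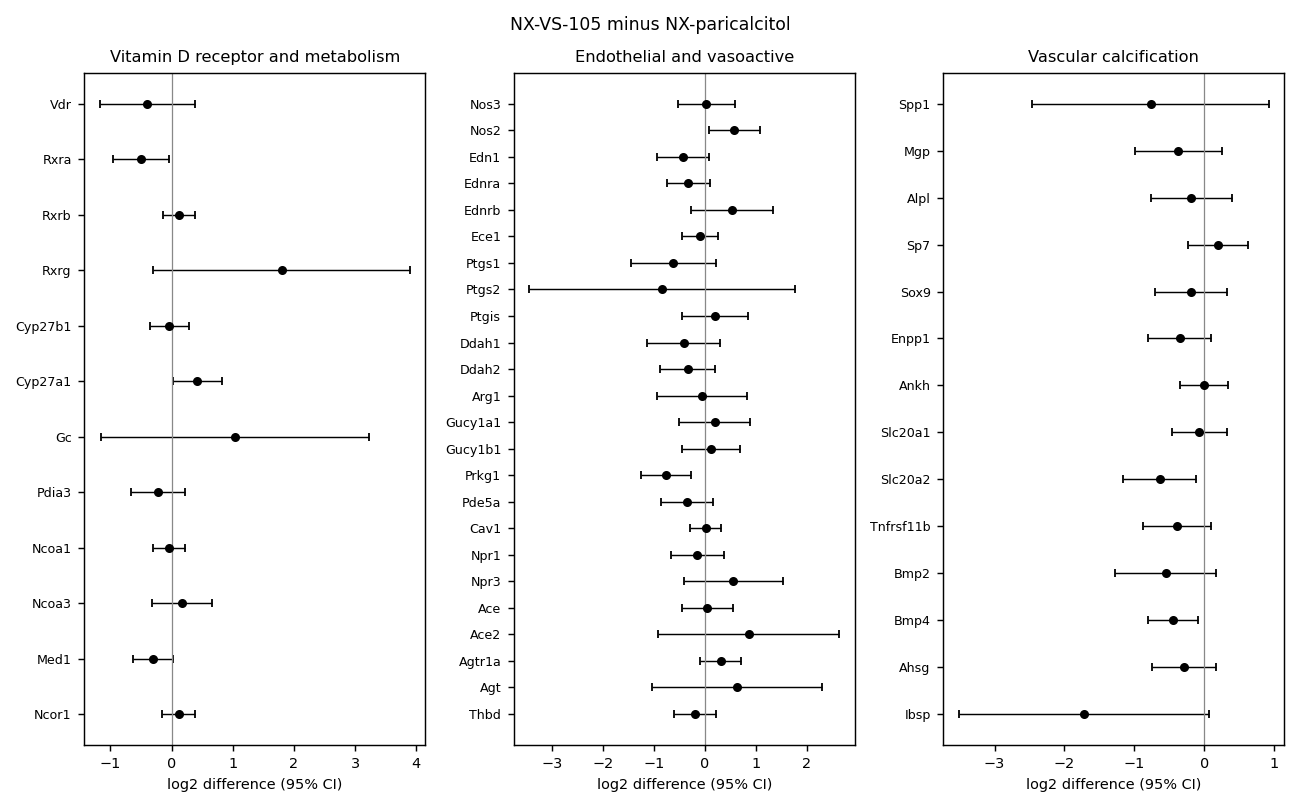
Log2 difference, NX-VS-105 minus NX-paricalcitol, with its 95% confidence interval from limma, for the measured members of the vitamin D, endothelial and vasoactive, and vascular calcification lists. Most intervals cross 0; Prkg1, Rxra, Bmp4 and Slc20a2 lie wholly below 0, Nos2 and Cyp27a1 wholly above, and none passed after adjustment over all features.

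Contractile smooth muscle and matrix genes were mostly lower in NX-VS-105 by small amounts, with no member past the adjusted test. Endothelial cell genes were not, with 8 of 15 above 0 and a median of 0.04. Among them 2 were higher and 0 lower at an unadjusted limma p under 0.05, against 4.06% and 9.45% of all features. The fibroblast list had 6 of 10 below 0, against 63.7% of all features, and a median of -0.09. The contractile smooth muscle list had a difference below 0 in 15 of 16 measured genes with a median of -0.23, against -0.10 over all features, and 2 members were lower at an unadjusted p under 0.05 (9.45% of all features). Myocd, the coactivator that switches on contractile genes, had 2.13, 2.05 and 1.71 in NX-VS-105, against 2.37, 2.58 and 2.70 in NX-paricalcitol (difference -0.59 ± 0.20, adjusted p = 0.271). Actg2, smooth muscle gamma actin, had 8.70, 8.47 and 7.16 in NX-VS-105, against 9.00, 8.82 and 9.10 in NX-paricalcitol (difference -0.86 ± 0.35, adjusted p = 0.324, and -0.38 without VS-105 array 3). Neither overlapped, and VS-105 array 3 was the lowest for both. That array also had the lowest contractile mean (6.78, against 7.29 to 7.67 on the paricalcitol arrays) and the highest adipocyte mean. Their part in this result was not tested, and without VS-105 array 3 the list's median was -0.04 and 0 members had a p under 0.05, whereas 4 did without paricalcitol array 1 and 1 without paricalcitol array 3.

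Matrix genes followed the same pattern. Of 20 collagen and elastic matrix genes 18 were below 0 (median -0.34), and of 11 basement membrane genes all 11 were (median -0.48), with 10 of 11 below 0 after centring on array medians or without VS-105 array 1 or paricalcitol array 1. Of all features 63.7% were below 0. At an unadjusted p under 0.05, 2 of the 20 and 3 of the 11 were lower, against 9.45% of all features. The 2 became 5 without paricalcitol array 1, 4 without VS-105 array 3 or sham array 1 and 0 without paricalcitol array 2 or 3, and the 3 became 7 without paricalcitol array 1 and 6 without VS-105 array 2 or NX-vehicle array 1. Col4a1, a basement membrane collagen chain, had 6.73, 6.62 and 6.49 in NX-VS-105, against 6.83, 7.39 and 7.32 in NX-paricalcitol (difference -0.56 ± 0.18, adjusted p = 0.263). Col4a3, another such chain, had -0.76, -1.22 and -1.59 in NX-VS-105, against -0.52, 0.49 and -0.25 in NX-paricalcitol (difference -1.09 ± 0.28, adjusted p = 0.224). Lox, which cross-links collagen and elastin, had 5.30, 5.67 and 5.81 in NX-VS-105, against 5.89, 6.41 and 6.41 in NX-paricalcitol (difference -0.64 ± 0.26, adjusted p = 0.323). These 3 genes separated the groups, as did Timp2, a metalloproteinase inhibitor, with 9.51, 9.24 and 9.04 in NX-VS-105 and 9.59, 10.12 and 9.83 in NX-paricalcitol (difference -0.58 ± 0.19, adjusted p = 0.263). Timp2 and Timp4, members of one inhibitor family, therefore lay on opposite sides. For Col1a1, a chain of fibrillar collagen, the values were 8.80, 9.83 and 9.85 in NX-VS-105, against 9.94, 9.94 and 10.21 in NX-paricalcitol (interval of the difference -1.09 to 0.01).

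Growth factor signalling and calcification genes lay on the lower side as well. Of 24 genes of the TGF-beta, BMP and activin families 23 were below 0 with a median of -0.24, against 63.7% of all features below 0, and 5 were lower at an unadjusted p under 0.05, against 9.45%. Without paricalcitol array 2 the median was -0.07. The 5 became 2 without that array, paricalcitol array 3 or VS-105 array 3, and 3 without array 3 of sham, NX-vehicle or NX-alfacalcidol. Tgfb3, a ligand, had 6.55, 6.64 and 6.15 in NX-VS-105, against 6.90, 6.86 and 7.37 in NX-paricalcitol (difference -0.60 ± 0.19, adjusted p = 0.258). Bmp4, a bone morphogenetic ligand, had 4.08, 4.05 and 3.96 in NX-VS-105, against 4.49, 4.38 and 4.56 in NX-paricalcitol (difference -0.44 ± 0.17, adjusted p = 0.299). Smad4, the shared signal transducer, differed by -0.28 ± 0.10 (adjusted p = 0.28). All 3 separated the groups. Of 14 calcification genes 13 were below 0 with a median of -0.36, and the 2 with an unadjusted p under 0.05 were Bmp4 and the phosphate transporter Slc20a2, with 5.70, 5.75 and 4.97 in NX-VS-105, against 5.86, 6.26 and 6.21 in NX-paricalcitol (adjusted p = 0.307). Without paricalcitol array 3 or VS-105 array 3, 0 of the 14 were at that p, and 1 without paricalcitol array 2. The calcification inhibitor Mgp overlapped between the groups, at 11.41, 10.99 and 10.57 in NX-VS-105 and 11.03, 11.71 and 11.33 in NX-paricalcitol (interval -0.99 to 0.25). Spp1, which encodes osteopontin, also overlapped, at 9.83, 7.80 and 7.41 in NX-VS-105 and 8.19, 9.91 and 9.23 in NX-paricalcitol (interval -2.46 to 0.93).

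Inflammatory and immune lists gave 0 passing genes. Of 14 measured cytokine and adhesion genes 11 were below 0 (median -0.43) and 3 were lower at an unadjusted p under 0.05, against 63.7% and 9.45% of all features. The 3 became 0 without paricalcitol array 2 or VS-105 array 3 and 1 without VS-105 array 2. Ccl2, the monocyte chemokine, had 1.79, 2.25 and 1.45 in NX-VS-105, against 2.34, 4.03 and 2.28 in NX-paricalcitol (difference -1.06 ± 0.43, adjusted p = 0.323). The groups did not overlap, but paricalcitol array 2 lay far above the others, and without it the difference was -0.48. The same array was highest for Vcam1, an adhesion molecule for leukocytes, with 7.62, 7.27 and 7.28 in NX-VS-105, against 7.52, 9.28 and 8.21 in NX-paricalcitol, where the groups overlapped (difference -0.94 ± 0.41, adjusted p = 0.35, and -0.47 without that array). The macrophage list had 10 of 14 members below 0 (median -0.14) and 2 lower at an unadjusted p under 0.05, which became 0 without paricalcitol array 2 or VS-105 array 2 or 3, with Aif1, a macrophage protein, at 4.42, 4.31 and 4.33 in NX-VS-105 and 4.70, 5.16 and 4.62 in NX-paricalcitol (difference -0.47 ± 0.20, adjusted p = 0.331). Of 7 platelet genes 2 were lower at an unadjusted p under 0.05, 4 without NX-vehicle array 2, and 1 after centring or without paricalcitol array 1 or 3 or VS-105 array 2. Gp1bb, a chain of the platelet glycoprotein complex that binds von Willebrand factor, had 2.21, 2.26 and 2.11 in NX-VS-105, against 2.71, 2.69 and 3.06 in NX-paricalcitol (difference -0.63 ± 0.14, adjusted p = 0.181). Blood content of the tissue was not controlled for in the labels, and its part was not tested. The erythroid list overlapped between the groups, with array means of 2.86 to 3.15 in NX-VS-105 and 2.46 to 4.18 in NX-paricalcitol. The platelet list did not, with 0.83 to 1.04 in NX-VS-105 and 1.07 to 1.47 in NX-paricalcitol. All 6 measured erythroid genes (median -0.21) and 6 of the 7 platelet genes (median -0.44) were below 0, against 63.7% of all features.

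The list of heat shock and unfolded protein response genes had 7 members lower and 1 higher of 21 at an unadjusted p under 0.05, against 9.45% and 4.06% of all features. Its median was -0.36, and 0 passed. Hsp90aa1, a cytosolic chaperone induced by stress, had 5.61, 5.81 and 5.22 in NX-VS-105, against 6.09, 6.41 and 6.09 in NX-paricalcitol (difference -0.65 ± 0.18, adjusted p = 0.235). Dnaja1, a co-chaperone, had 4.94, 4.78 and 4.89 in NX-VS-105, against 5.33, 5.55 and 5.22 in NX-paricalcitol (difference -0.50 ± 0.15, adjusted p = 0.244). Neither overlapped. The other 5 lower members were Atf4, Hspa8, Hsph1, Hspa5 and Xbp1, with differences from -0.69 to -0.36, and the higher one was Herpud1 (0.39). These serve both the cytosol (Hspa8, Hsph1) and the endoplasmic reticulum (Hspa5, Xbp1). Without paricalcitol array 2 or VS-105 array 3, 2 members were lower at an unadjusted p under 0.05, and the higher count was 0 without paricalcitol array 1 or 3 or VS-105 array 2.

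At an unadjusted limma p under 0.05, 4.06% of all features were higher and 9.45% lower in NX-VS-105. Cholesterol genes were split, with 2 higher and 3 lower of 16 at that threshold. The higher count was 0 without paricalcitol array 2 or VS-105 array 3 and 1 without paricalcitol array 3 or VS-105 array 1, and the lower count was 7 without VS-105 array 2, 5 without NX-vehicle array 1 and 1 without paricalcitol array 3 or VS-105 array 1 or 3. Cyp51, a demethylase of the synthesis pathway, had 1.92, 2.63 and 1.86 in NX-VS-105, against 3.05, 2.85 and 3.09 in NX-paricalcitol (difference -0.86 ± 0.23, adjusted p = 0.227). Dhcr7, the enzyme that consumes the precursor of vitamin D, had 2.84, 2.04 and 2.71 in NX-VS-105, against 2.24, 1.11 and 1.62 in NX-paricalcitol (difference 0.87 ± 0.31, adjusted p = 0.288). Cyp51 separated the groups and Dhcr7 overlapped. Of 23 antioxidant genes 3 were higher (1 without paricalcitol array 3) and 2 lower (0 without paricalcitol array 2, 1 without paricalcitol array 3 or VS-105 array 3), led by Gstm1, a glutathione S-transferase, with 3.33, 3.45 and 3.23 in NX-VS-105, against 2.72, 2.68 and 2.81 in NX-paricalcitol (difference 0.60 ± 0.15, adjusted p = 0.206). Cell cycle genes were below 0 in 20 of 21, against 63.7% of all features, with a median of -0.42. Of these, 3 were lower at an unadjusted limma p under 0.05. That count was 10 without paricalcitol array 1, 11 without VS-105 array 3 and 0 without any other of the 6 arrays, and it was 0 with array medians subtracted. Plk1, a mitotic kinase, had 1.71, 1.16 and 1.94 in NX-VS-105, against 1.71, 2.40 and 2.69 in NX-paricalcitol, and paricalcitol array 1 lay among the VS-105 arrays (difference -0.66 ± 0.28, adjusted p = 0.345).

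Fat and oxidative metabolism genes lay mostly above 0, by amounts that depended on single arrays. All 14 white adipocyte genes were above 0, against 36.3% of all features, with a median of 1.34. Yet only 1 was higher at an unadjusted limma p under 0.05, against 4.06% of all features, and 0 passed. Pparg, the adipocyte nuclear receptor, had 6.35, 5.36 and 7.01 in NX-VS-105, against 5.93, 4.08 and 4.16 in NX-paricalcitol, with paricalcitol array 1 among the VS-105 arrays (difference 1.51 ± 0.75, adjusted p = 0.391). Slc2a4, the insulin-responsive glucose transporter, had 5.49, 5.96 and 6.57 in NX-VS-105, against 5.95, 4.40 and 5.13 in NX-paricalcitol (difference 0.85 ± 0.36, adjusted p = 0.344). In both genes only that paricalcitol array overlapped with the VS-105 arrays. Fatty acid oxidation genes were above 0 in 23 of 24 (median 0.90) and respiratory chain subunits in 28 of 29 (median 0.54), each with 1 member at an unadjusted p under 0.05. Echs1, an enzyme of beta-oxidation, had 7.79, 7.79 and 8.30 in NX-VS-105, against 7.75, 6.66 and 6.60 in NX-paricalcitol (difference 0.95 ± 0.41, adjusted p = 0.35). Leaving out paricalcitol array 1 raised the counts at an unadjusted p under 0.05 to 12 of 14 adipocyte, 19 of 24 fatty acid oxidation and 15 of 29 respiratory chain genes, with medians of 2.10, 1.40 and 0.81, and still 0 passed the adjusted test. Leaving out paricalcitol array 2 or 3 or VS-105 array 3 brought each count of higher members to 0. Without VS-105 array 2 the oxidation list had 0 higher and 1 lower and the respiratory chain list 0, and without VS-105 array 1 they had 0 and 3 higher. Leaving out an array of neither compound, NX-vehicle array 1, left the differences as they were and raised the counts to 7 adipocyte, 12 oxidation and 8 respiratory chain genes, and the respiratory chain count was 0 without NX-vehicle array 2 or any 1 sham or alfacalcidol array. Paricalcitol array 1 had the highest mean of its group in all 3 lists. The fat content of the pools is not given in the sources used here, and its part in the differences was not tested.

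The brown fat list had 7 of 9 members above 0 (median 1.19), against 36.3% of all features. Its array means were 3.07, 3.34 and 3.75 in NX-VS-105, against 3.59, 1.51 and 2.55 in NX-paricalcitol. As for white fat, paricalcitol array 1 lay among the VS-105 arrays. At an unadjusted limma p under 0.05, 1 member was higher, against 4.06% of all features. That count was 4 without paricalcitol array 1, 3 without NX-vehicle array 1 and 0 without paricalcitol array 2 or 3, and without paricalcitol array 2 there were 2 lower. Kcnk3, a background potassium channel found in brown fat and in smooth muscle, had 5.53, 5.00 and 5.61 in NX-VS-105, against 4.88, 3.19 and 3.27 in NX-paricalcitol (difference 1.60 ± 0.58, adjusted p = 0.289). Here all VS-105 arrays lay above all paricalcitol arrays. Hdc, the histidine decarboxylase of mast cells, had 0.98, 0.21 and 0.91 in NX-VS-105, against 0.19, -1.13 and -1.14 in NX-paricalcitol (difference 1.39 ± 0.55, adjusted p = 0.32), with the closest arrays only 0.02 apart. Only 2 genes of the mast cell list were measured. The other, Cma1, overlapped between the groups (difference 0.44 ± 0.76, limma adjusted p = 0.793).

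Skeletal muscle genes were above 0 in 17 of 18 (median 1.36), against 36.3% of all features. Of these, 5 were higher at an unadjusted limma p under 0.05, against 4.06% of all features. Myoz1, a sarcomere protein, had 2.30, 0.84 and 0.41 in NX-VS-105, against -0.35, -0.96 and -0.64 in NX-paricalcitol (difference 1.83 ± 0.40, adjusted p = 0.175). Ckm, muscle creatine kinase, had 4.56, 2.17 and 1.30 in NX-VS-105, against 1.18, -0.89 and 1.00 in NX-paricalcitol, with VS-105 array 1 the highest (difference 2.24 ± 0.81, adjusted p = 0.288, and 1.30 without that array). Both genes were higher on every VS-105 array than on every paricalcitol array. Myh7, the slow myosin heavy chain, had 4.49, -0.30 and -0.73 in NX-VS-105, against -1.02, -2.55 and -1.59 in NX-paricalcitol (difference 2.87 ± 1.02, adjusted p = 0.285, and 1.21 without VS-105 array 1). Without VS-105 array 1 the skeletal muscle median was 0.09, 10 of 18 members were above 0, and 1 was higher and 1 lower at an unadjusted p under 0.05. Without VS-105 array 3 the median was 2.00 and 10 were higher, and 2 were without paricalcitol array 2 and 3 without paricalcitol array 1 or 3 or NX-vehicle array 2.

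**Figure D4:**
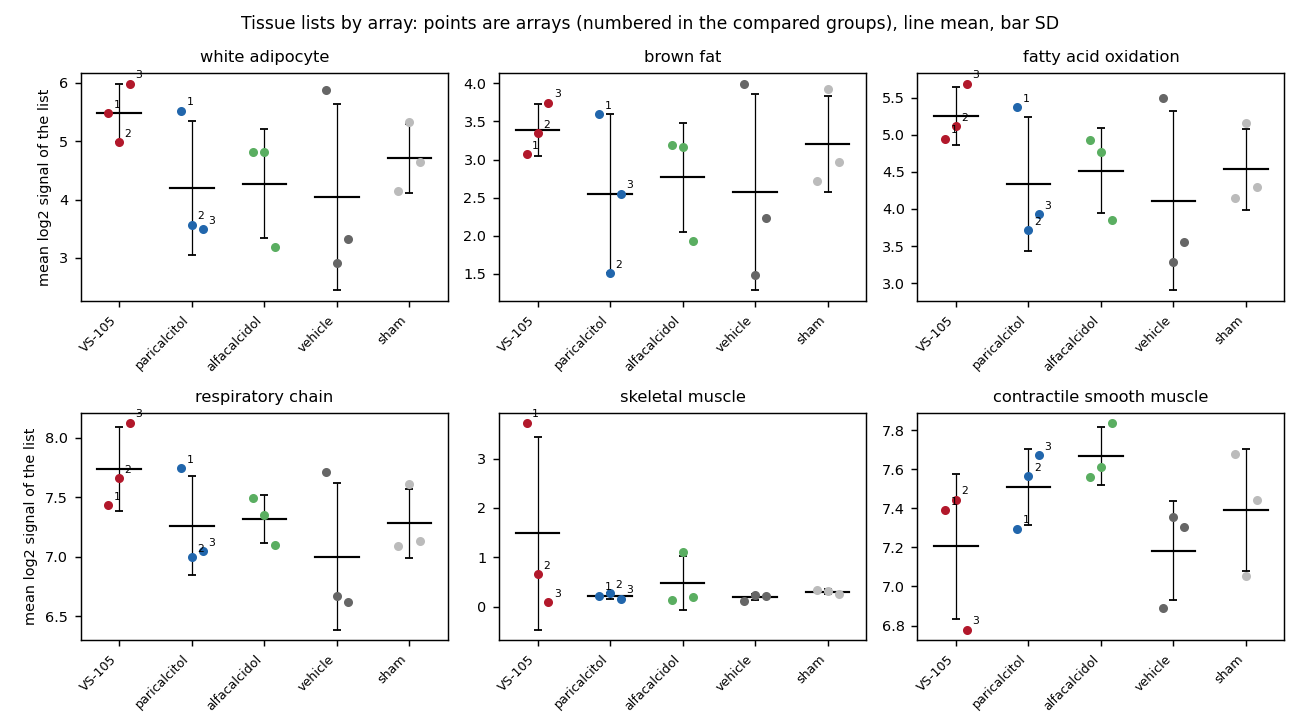
Mean log2 signal of 6 tissue and metabolism lists on each array of the 5 groups; points are arrays, numbered in NX-VS-105 and NX-paricalcitol, lines are means and bars SD (n = 3). Paricalcitol array 1 lies with the VS-105 arrays in the adipocyte, brown fat, fatty acid oxidation and respiratory chain panels, and VS-105 array 1 stands alone for skeletal muscle at 3.72.

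Read over 50 gene lists with 657 measured members, 0 members passed in limma, and 95 (14.5%) had an unadjusted p under 0.05, 42 of them higher and 53 lower in NX-VS-105. That share is near the 13.5% of all features. List medians lay on both sides of the overall median of -0.10. In the authors' deposited table of 89 genes that separated NX-vehicle from sham, 0 passed between VS-105 and paricalcitol, 3 were higher and 6 lower at an unadjusted p under 0.05 (4.06% and 9.45% of all features were), and the median difference was -0.38.

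**Figure D5:**
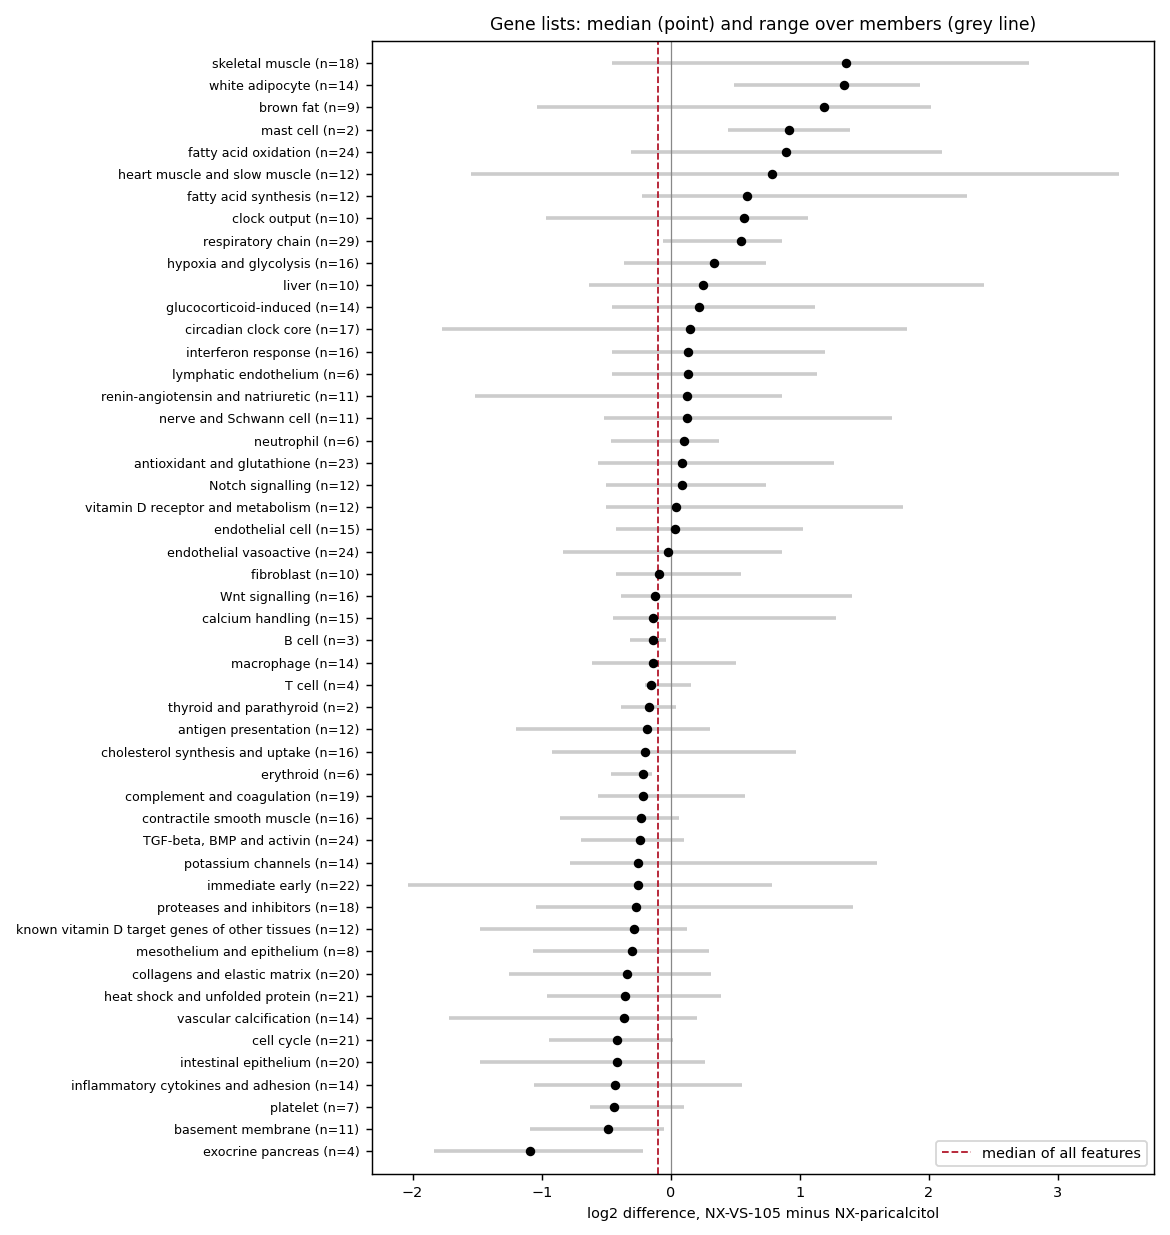
Median log2 difference, NX-VS-105 minus NX-paricalcitol, of each of 50 gene lists (points) with the range over its measured members (grey lines); the dashed line is the median of all features, -0.10. Skeletal muscle (1.36), white adipocyte (1.34) and brown fat (1.19) lists have the highest medians, and basement membrane (-0.48), platelet and exocrine pancreas lists lie lowest, the last resting on 4 measured genes.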

How the data were processed

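Per the labels' protocols, RNA of pooled aortas was labelled with Cy3 and hybridised to one-colour Agilent arrays. Partek 6.0 is the software in the submitters' processing notes. How background and scale were corrected and how features were chosen is not stated in the sources used here. Precision is limited by the number of arrays. The authors' deposited values are on a log2 scale, checked against 178 deposited fold changes (largest gap 8.69e-06). The authors' deposited comparison sheet gives, for each gene, a p-value and a signed fold against sham, and was used for that check of scale and for its list of 89 genes. All value columns were assigned to groups from the labels, with 0 left unmapped.

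Feature names were matched to RefSeq gene symbols (9187 current, 1555 by synonym, 23 several, 4974 none). Group means of all 5 groups were fitted with limma 3.58.1 in R 4.3.3 (lmFit, eBayes at default), with 10 residual degrees of freedom, two-sided tests and Benjamini-Hochberg adjustment over 15739 features. ± after a difference is its SE and after a level its SD. List counts and promoter searches used Python 3.11.15. The pipeline was tested on simulated data.

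The comparison, gene lists and rules were chosen with earlier results of these data known. Named were the 4 genes with the smallest p in each direction, the 2 members with the smallest p of each list, and 12 genes always looked up. Other clock, chaperone and wall genes were chosen after their values were seen. Some genes that the rule selects are not described. Part of these are near the bottom of the scale or in lists given by counts. Others, such as Stim1, Itpr1 and Ccl21, are neither. Values under -2.71, the highest array minimum, have no common scale between arrays. Alternatives covered centring, quantile normalization, a common floor, a filter on low features, other variance models, array weights, the replicate number as a block and each array left out.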

Additional observations from a re-analysis of the deposited data

How the results depend on the processing

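The 3 calls depended on the model. The number of features passing became 5 with array medians subtracted (4 lower, 1 higher, and 2 of the 3 calls among them) and 5 with an intensity trend. It was 0 with quantile normalization, with the 6 arrays alone, without moderation of variances and with a robust prior. Array weights, whose estimation stopped before convergence and set 1 vehicle array at 18.2, gave 380 features and 16 list members, with 1455 features higher and 2877 lower at an unadjusted p under 0.05. With only features above the median level, the unadjusted counts were 263 higher and 904 lower, since fewer were tested. The replicate number as a block gave 0 passing features over 15 arrays and 0 over the 6 arrays. Deviations of same-numbered arrays correlated at -0.119, 0.117 and -0.134 over features, so the numbers were not taken as pairs. With each array left out in turn, 0 to 1 features passed, 321 to 1104 were higher and 763 to 1912 lower at an unadjusted p under 0.05. The cause of these shifts was not tested. Of 82 named genes, 3 reversed in sign, all near 0. With arrays left out, Nos3 ranged from -0.20 to 0.28, Cyp27b1 from -0.17 to 0.047 and Per1 from -0.15 to 0.072, and with array medians subtracted Cyp27b1 was 0.022 and Per1 0.014. With 3 pools a group, differences of the size seen in most list members could not be separated from the spread.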

Other observations

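Some gene families were looked up after their values had been seen, and are given as description. In the families described here 0 members passed the adjusted limma test. Glutathione S-transferases, which conjugate glutathione to electrophiles, had a difference above 0 in 19 of 20 measured family members, with a median of 0.53 (log2), against 36.3% of all features above 0. The 19 include Gsta2, whose means of -3.22 in NX-VS-105 and -3.94 in NX-paricalcitol lay under the highest array minimum of -2.71. Gsta3, Gstm1, Gstp1 and Gstt1 also belong to the antioxidant list. Gstm7 had 4.04, 4.37 and 4.24 in NX-VS-105, against 3.42, 2.32 and 2.38 in NX-paricalcitol. Gstt2 had 3.90, 3.10 and 3.64 in NX-VS-105, against 3.07, 2.66 and 2.38 in NX-paricalcitol. In both the VS-105 arrays lay above all paricalcitol arrays, and paricalcitol array 1, the one with high adipocyte signal, lay nearest to them. The exception in the family was Gstt3, whose VS-105 mean was 0.27, with -0.69, 1.13 and 0.36 on its arrays, against 0.95, 1.28 and 0.79 in NX-paricalcitol.

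Cytosolic aminoacyl-tRNA synthetases, which load amino acids onto transfer RNA, were below 0 in 14 of 16, with a median of -0.18, against 63.7% of all features below 0 and an overall median of -0.10. Aars1, the alanyl enzyme, had 4.79, 4.84 and 4.64 in NX-VS-105, against 5.26, 5.58 and 5.54 in NX-paricalcitol, without overlap. Rcan1, an inhibitor of calcineurin that calcineurin signalling itself induces, had 5.17, 5.14 and 4.17 in NX-VS-105, against 5.89, 6.19 and 6.10 in NX-paricalcitol. All 4 measured genes of the Rcan family and Lmcd1, a cofactor also linked to calcineurin signalling, had a difference below 0, with a median of -0.76. Lmcd1 had 6.65, 6.78 and 6.32 in NX-VS-105, against 7.37, 7.48 and 7.70 in NX-paricalcitol.

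Of 22 measured immediate early genes, 14 were below 0, against 63.7% of all features. All VS-105 arrays lay below all paricalcitol arrays for 3 of them, against 13.8% of all features. At an unadjusted limma p under 0.05, 1 was lower, against 9.45% (0 without VS-105 array 3, and up to 3 with other single arrays left out). These counts were near or under the shares of all features. Fos and Atf3 differed widely within each group. Fos had 0.67, 3.98 and -0.05 in NX-VS-105, against 3.85, 0.34 and 0.13 in NX-paricalcitol. Atf3 had 1.35, 6.54 and 2.30 in NX-VS-105, against 5.99, 1.52 and 1.68 in NX-paricalcitol. In each group a single array was high, VS-105 array 2 and paricalcitol array 1, and the list means on them were 3.96 and 4.11, against 2.07 to 3.04 on the other 4 arrays.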
